A study of Drosophila melanogaster with 4 samples.

Results

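Trl encodes the GAGA factor, a zinc finger protein that binds GA-rich DNA. The other 9 genes described here encode core or form-specific subunits of the Brahma chromatin remodelling complex (brm, osa, mor, Snr1, Bap60, polybromo) and of the Trithorax-related (Trr) histone methyltransferase complex (trr, Ncoa6, Utx). The 10 genes were chosen by name, as cofactors that are known to act with the growth regulator Yorkie (Yki), with earlier results of these data known. Their read counts were taken from a table of 15222 gene features in each library by FlyBase identifier. All 10 were found and all 10 passed the filter on low counts.

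The libraries held total RNA of wing imaginal discs, the larval epithelia that form the adult wing and notum, dissected by hand from Drosophila melanogaster larvae of the third instar. There were 2 libraries of wild type (strain yw) and 2 of wtsP2, which the labels give the same strain. The labels name wtsP2 as the genotype and give neither whether it was homozygous nor how many larvae were pooled. Separate dissections or cultures for the replicates are not stated either, so the p-values measure the spread between these libraries, which may be technical.

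The gene wts encodes Warts, the kinase of the Hippo pathway that phosphorylates Yki and keeps it out of the nucleus. In the nucleus Yki is carried to DNA by Scalloped and other factors and works with proteins that open or mark chromatin. The GAGA factor opens chromatin at promoters and enhancers. The Brahma complex uses the ATPase Brm to move nucleosomes and exists as the BAP form, which holds Osa, and the PBAP form, which holds Polybromo. The Trr complex adds methyl groups to histone H3 at enhancers, and its subunit Ncoa6 binds the WW domains of Yki.

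In wtsP2 discs, transcripts of the ATPase gene brm, the core subunit gene Snr1, the methyltransferase gene trr and the reads assigned to Trl lay 2.32-fold to 3.00-fold above wild type, and those of Ncoa6 lay 1.95-fold above. The subunit genes osa, Bap60 and polybromo, for which the fold ran from 1.07 to 1.29, differed from wild type by less than 1 SE. So did Utx of the Trr complex, at a fold of 1.485 with a larger SE. None of the 10 genes passed edgeR's quasi-likelihood test at a Benjamini-Hochberg adjusted p under 0.05, in a comparison that called 0% of 7278 genes higher and 0% lower. The log2 fold change was positive for all 10 genes, against 58.0% of all tested genes, and the median over the 10 was 0.81 against 0.24 over all tested genes. For 8 of the 10, the lower wtsP2 library was still above the higher wild-type library, where 32.3% of all tested genes did so. At an unadjusted p under 0.05, 3 of the 10 (Trl, brm and trr) were higher, against 9.91% of all tested genes, and 0 were lower, against 2.65%. DESeq2 and limma-voom also called 0 of the 10, while they called 1.30% and 1.69% of the genes with an adjusted p as higher. The counts over the 10 and their median include Trl, whose exons are mostly shared with other genes, as described below.

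**Figure D1:**
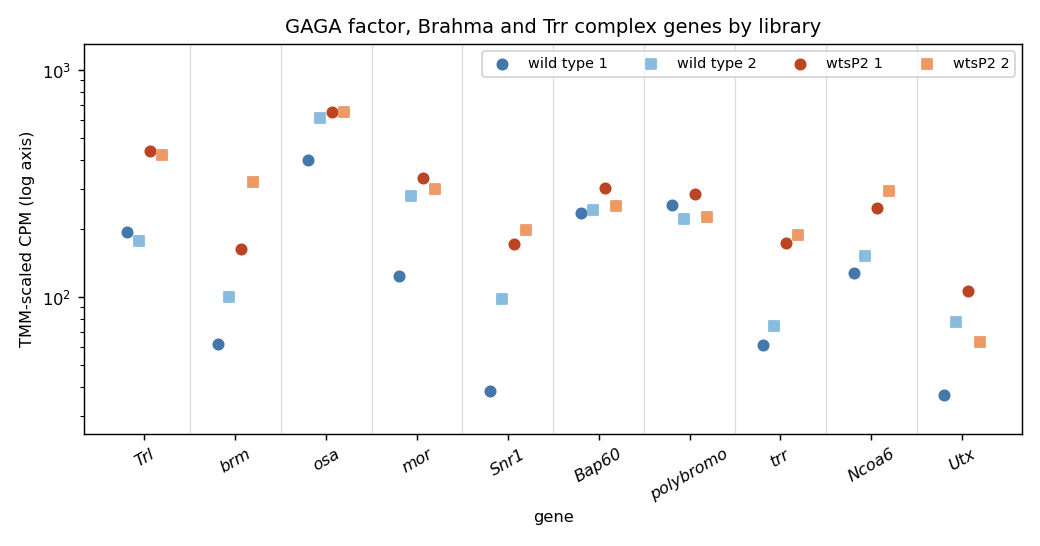
TMM-scaled CPM (counts scaled to library size, log axis) of the 10 genes in each library, 1 point per library (circles, replicate 1; squares, replicate 2; blue, wild type; red and orange, wtsP2). The wtsP2 points of Trl, brm, Snr1, trr and Ncoa6 lie above both wild-type points with a clear gap, while those of polybromo and Utx overlap with wild type.

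The depth behind these values was uneven. Totals ran from 696952 counts, in the second wild-type library, to 3846682, in the second wtsP2 library, and a floor of 3 counts came to 0.780 to 4.30 CPM (counts scaled to library size; the CPM of this paragraph are not scaled by TMM, all others are), for counting error only. Over tested genes, Pearson r of log2 CPM was 0.564 for the wild-type pair and 0.868 for the wtsP2 pair, while the 4 pairs of a wild-type with a wtsP2 library lay at 0.574 to 0.659, all above the wild-type pair. This is a description over genes that are not independent replicates. The targeted gene wts had counts of 46 and 0 (wild type) and of 48 and 24 (wtsP2), too few to check the genotype labels. Wing disc markers were present at 2554 to 2798 CPM in sum in all 4 libraries, with none of the 10 at 0 throughout, but their members went both ways: 3 lay above wild type in both wtsP2 libraries and 4 below, and Dll had no read in the second wild-type library. The 3 eye disc markers summed to 99.4 and 263 CPM (wild type) against 56.2 and 36.4 CPM (wtsP2). The 6 fat body markers summed to 18077 and 18742 CPM (wild type) against 845 and 1154 CPM (wtsP2), the 7 haemocyte markers to 693 and 801 CPM against 170 and 239 CPM, and the 6 salivary gland markers to 488 and 406 CPM against 4.83 and 1.30 CPM. Of the 6 haemocyte markers tested, PPO1, PPO2 and srp lay below wild type in both wtsP2 libraries, and Hml, Pxn and eater overlapped. None of these markers was at 0 in all libraries. Their part in the differences of the 10 genes was not tested, and in bulk tissue fewer cells of a type and less RNA per cell cannot be told apart.

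Trl (FBgn0013263) lies on chromosome 3L, 14741029 to 14754149, minus strand (positions as in the count files, build BDGP5). Its counts were 396 and 135 (wild type) and 1532 and 1511 (wtsP2). Scaled for depth these were 193 and 177 CPM against 439 and 421 CPM, so that the groups were apart and each pair of libraries was close. The log2 fold change was 1.22 ± 0.35 (here and below ± gives the SE, with 2 libraries in each group; edgeR adjusted p = 0.368). Among the 10 genes its unadjusted p in edgeR was the smallest, at 0.0161. It moved little when 1 library was left out, between 1.20 and 1.29, and passed without the first or the second wild-type library (edgeR adjusted p = 0.0156 and 0.0335), fits in which the spread comes from the wtsP2 pair alone and is taken to hold for the single wild-type library too.

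These reads cannot be given to Trl alone. In the BDGP6 annotation 77.8% of the exon bases of Trl are shared with other genes on the same strand, CG42507 and Tsen34. CG42507, whose span in the count files (14741029 to 14751059) lies inside that of Trl and which is 4431 bases long there, had counts of 365 and 114 (wild type) and of 1483 and 1397 (wtsP2). That equals 92.2% and 84.4% of the Trl count (wild type) and 96.8% and 92.5% (wtsP2). The excess of the Trl count over that of CG42507 was 31 and 21 reads (wild type) and 49 and 114 reads (wtsP2). Scaled for depth this excess was 15.0 and 27.4 CPM (wild type) against 14.0 and 31.6 CPM (wtsP2), so that the groups overlapped. Tsen34, which also shares exons with Trl, had counts of 31 and 0 (wild type) and of 83 and 10 (wtsP2). The excess may hold reads shared with Tsen34, so it cannot be given to Trl alone either.

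The authors' deposited table of group means, made from another counting of the same libraries, lists Trl at 0 in wild type and at 15.7 normalised counts in wtsP2, and gives no finite fold. The mean in wtsP2 splits into 18 and 38 whole reads, 56 in all, against 3043 in the per-library files. The same table lists CG42507 at 0 in both groups and Tsen34, which encodes a tRNA splicing endonuclease subunit, at 17.5 and 14.8. Over both groups the reads recovered from that table came to 1.57% of the per-library count for Trl, where the median over 6527 genes with at least 100 counts was 106% and 7.14% of those genes lay under 1%. The difference seen for Trl therefore stands for the locus that Trl shares with CG42507. In the second counting Trl had reads of 0 and 0 (wild type) and of 18 and 38 (wtsP2). Set against a floor of 3 counts over the wild-type group, for counting error only, the ratio was 6.82. It gives no error to the wtsP2 reads and none between libraries, so it is not a bound. In the per-library files the excess of the Trl count over that of CG42507 overlapped between the groups, as given above. With the recovered reads Trl did not pass in edgeR (adjusted p = 0.357). It met the low-count filter there only through the wtsP2 libraries, so no difference is drawn from this test.

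**Figure D2:**
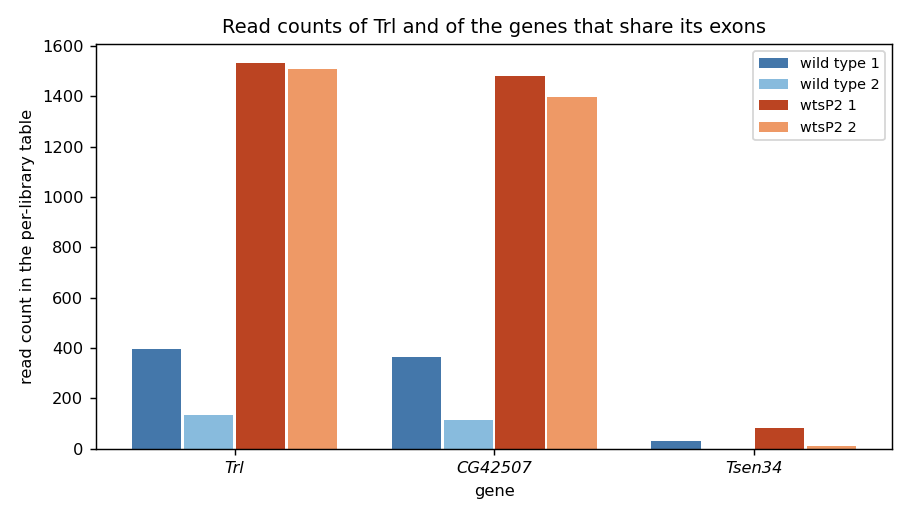
Read counts (not scaled for depth) of Trl and of the genes that share its exons, 1 bar per library. The bars of CG42507 follow those of Trl closely in every library (365 against 396 in the first wild-type library, 1483 against 1532 in the first wtsP2 library), and Tsen34 stays under 100 counts.

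Among the core subunits of the Brahma complex, brm and Snr1 had the largest differences and the mor and Bap60 values were smaller. The gene brm (FBgn0000212; 3L, 15963182 to 15975969, minus strand), for the ATPase, had counts of 128 and 76 (wild type) and of 570 and 1149 (wtsP2), or 62.4 and 99.7 CPM against 163 and 320 CPM. The wtsP2 libraries were both higher, but the gap between them was larger than the gap from the lower of them to the higher wild-type library. The log2 fold change was 1.58 ± 0.55 (edgeR adjusted p = 0.368), and it was 1.02 without the second wtsP2 library and 2.02 without the first. It passed without the first or the second wild-type library (edgeR adjusted p = 0.0432 and 0.00227).

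Snr1 (FBgn0011715; 3R, 1296639 to 1298476, plus strand) encodes the fly relative of the human tumour suppressor SMARCB1. It had counts of 79 and 75 (wild type) and of 594 and 709 (wtsP2), or 38.5 and 98.4 CPM against 170 and 198 CPM. The groups did not overlap, but the wild-type libraries stood far apart. Its log2 fold change of 1.44 ± 0.62 (edgeR adjusted p = 0.457) depended on which of them was used: it was 0.91 without the first and 2.30 without the second, where it passed (edgeR adjusted p = 0.000556).

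The scaffold gene mor (FBgn0002783; 3R, 11793856 to 11798636, minus strand) had counts of 253 and 213 (wild type) and of 1162 and 1068 (wtsP2), or 123 and 279 CPM against 333 and 298 CPM. The second wild-type library lay close to the wtsP2 pair and the first far below. The log2 fold change of 0.65 ± 0.51 (edgeR adjusted p = 0.808) accordingly went to 0.18 when the first wild-type library was left out and to 1.40 when the second was, where it passed (edgeR adjusted p = 0.0130). Bap60 (FBgn0025463; X, 13051478 to 13053611, minus strand), a core subunit that binds transcription factors in mammals, varied little. Its values were 234 and 241 CPM (wild type) and 300.5 and 250 CPM (wtsP2), a log2 fold change of 0.21 ± 0.36 (edgeR adjusted p = 0.969).

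The genes that tell the BAP form from the PBAP form lay nearest to wild type together with Bap60. The BAP subunit gene osa (FBgn0261885; 3R, 13513540 to 13544059, minus strand) had counts of 820 and 467 (wild type) and of 2273 and 2338 (wtsP2), or 399 and 613 CPM against 652 in both wtsP2 libraries. Its log2 fold change was 0.37 ± 0.37 (edgeR adjusted p = 0.911), 0.09 when the first wild-type library was left out and 0.75 when the second was. The PBAP subunit gene polybromo (FBgn0039227; 3R, 20625691 to 20630977, minus strand) had 253 and 220 CPM (wild type) and 284 and 224 CPM (wtsP2), and the groups overlapped. Its log2 fold change of 0.10 ± 0.37 (edgeR adjusted p = 0.988) turned to -0.04 without the first wtsP2 library.

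In the Trr complex, trr and Ncoa6 lay above wild type in both wtsP2 libraries and Utx did not. The gene trr (FBgn0023518; X, 1775340 to 1783808, minus strand), for the methyltransferase, had counts of 126 and 57 (wild type) and of 600 and 670 (wtsP2), or 61.4 and 74.8 CPM against 172 and 187 CPM. The pairs were close and did not overlap, and the log2 fold change was 1.40 ± 0.48 (edgeR adjusted p = 0.368), which passed without the first or the second wild-type library (edgeR adjusted p = 0.0294 and 0.0112). The second counting gave a smaller difference: the authors' deposited table lists means of 235 and 359 normalised counts, a fold of 1.53, and the whole reads recovered from it were 126 and 126 (wild type) and 709 and 589 (wtsP2), where the order within a group is not tied to the replicate numbers. In sum these are 252 reads against 183 in the per-library files (wild type) and 1298 against 1270 (wtsP2). With those reads in edgeR the log2 fold change of trr was 0.69 ± 0.58 (adjusted p = 0.828).

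Ncoa6 (FBgn0031698; 2L, 5315426 to 5326683, minus strand) had counts of 261 and 115 (wild type) and of 859 and 1055 (wtsP2), or 127 and 151 CPM against 246 and 294 CPM. The groups did not overlap, and the log2 fold change was 0.96 ± 0.39 (edgeR adjusted p = 0.404), with a pass without the second wild-type library (edgeR adjusted p = 0.0446). The authors' deposited table gives a fold of 1.55 for it. Utx (FBgn0260749; 2L, 10272627 to 10278811, minus strand) encodes a demethylase that removes the repressive mark placed by Polycomb proteins. It had counts of 76 and 59 (wild type) and of 369 and 228 (wtsP2), or 37.0 and 77.4 CPM against 106 and 63.6 CPM. The groups overlapped, and the log2 fold change was 0.57 ± 0.81 (edgeR adjusted p = 0.946), 0.13 when the first wild-type library was left out and 1.23 when the second was.

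**Figure D3:**
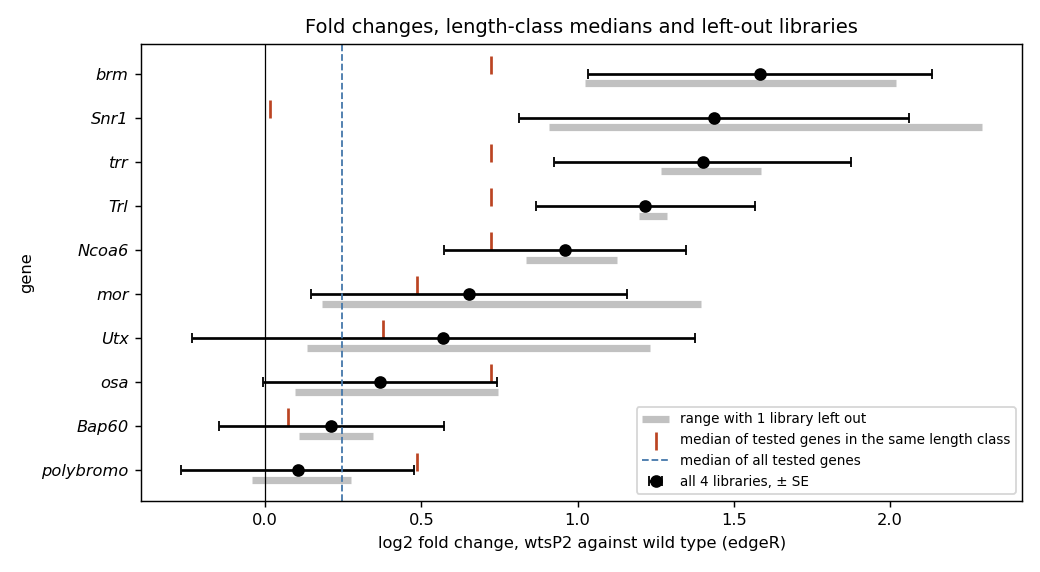
Log2 fold changes of the 10 genes (points, with bars of 1 SE), the range over the 4 fits with 1 library left out (grey), and the median of tested genes in the same class of length (red ticks) and of all tested genes (dashed line, 0.24). The grey ranges are widest for mor, Snr1, Utx and brm, and the length-class median is 0.72 for Trl, brm, osa, trr and Ncoa6.

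The fold changes have to be read beside gene length and the choice of library. Of the 10 genes, 5 (Trl, brm, osa, trr and Ncoa6, 5568 to 10685 bases) fell in the longest of 10 classes of tested genes, where the median log2 fold change was 0.72. Snr1, at 1342 bases, was in a class with a median of 0.01. Both osa and polybromo lay below the median of their class, which was 0.48 for polybromo. Without the first wild-type library the median over the 10 genes was 0.53 and that of all tested genes was 1.33, and 0 of the 10 lay above the latter, against 8 with all libraries. In that fit 3 of the 10 passed as higher (Trl, brm and trr), where 31.5% of all tested genes did. Without the second wild-type library 6 passed (Trl, brm, mor, Snr1, trr and Ncoa6), where 12.3% of all tested genes did. Without either wtsP2 library 0 passed, where 0.128% and 0.0386% of all tested genes were called higher.

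Between genes, levels were compared per length with the authors' RPKM values. Bap60 stood at 115 to 150 RPKM and was first in 3 of the 4 libraries and second in the other. By mean order over the 4 libraries, Snr1 (28.3 and 81.2 RPKM in wild type, 127 and 139 in wtsP2) and mor (30.6 and 77.9, then 84.0 and 70.9) came next. Snr1 was above Bap60 in the second wtsP2 library, and in the first wild-type library Snr1 and mor held places 6 and 4. In wild type these levels and those of osa (36.9 and 63.5 RPKM) did not differ from each other beyond the spread between libraries. Polybromo (41.6 to 55.8 RPKM) was second in the first wild-type library and held place 5 to 7 in the others. Among the 10, the Trr complex genes were low: Ncoa6 ran from 12.7 to 28.1 RPKM, Utx from 9.74 to 28.3 and trr from 7.43 to 21.7. Among all features above 0 in a library, they lay between percentiles 16.3 and 33.7 in wild type and between 46.4 and 65.3 in wtsP2. The base differed: 7023 and 5031 features were above 0 in wild type, and 7842 and 8625 in wtsP2. In the second libraries polybromo was at percentile 59.0 with 47.8 RPKM (wild type) and at 76.7 with 41.6 RPKM (wtsP2). A shift in percentile between the groups is therefore not a change in level. The gene trr was last in 3 of the 4 libraries and next to last in the second wtsP2 library. In wild type brm, at 11.0 and 19.8 RPKM, lay within the range of the Trr complex genes, and in the second wtsP2 library, at 54.5 RPKM, it lay close to osa at 57.8.

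For Trl, osa, mor, trr, Ncoa6 and Utx, fewer exons held more than 10 reads in both wild-type libraries than in either wtsP2 library. Bap60 had 3 such exons in every library, and brm, Snr1 and polybromo had equal numbers in the first library of each group. The wild-type libraries were also shallower, and the part of depth in this was not tested. The share of all features with such a pattern was not counted, so it cannot be read as particular to these genes. Of the 18 exons of osa, 9 and 8 held more than 10 reads in the wild-type libraries, and 15 and 13 did in the wtsP2 libraries. Of the 8 exons of trr, the corresponding numbers were 2 and 2 against 6 and 7, and of the 19 exons of Utx, 4 and 1 against 8 and 8. In wild type, few exons of trr and Utx passed this cut. How their reads were spread over exons with 10 reads or fewer is not shown by these numbers.

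Ratios of counts within a library do not depend on the scaling between libraries. The osa to polybromo ratio, which sets the BAP form's subunit gene against that of the PBAP form, was 1.58 and 2.77 (wild type) and 2.29 and 2.90 (wtsP2). These overlapped, with a difference of 0.30 in mean log2 ratio. The brm to mor ratio was 0.507 and 0.358 (wild type) and 0.491 and 1.08 (wtsP2), so that 1 wtsP2 library was like wild type and the other was not. The trr to Utx ratio was 1.65 and 0.966 against 1.63 and 2.93, and overlapped as well. Only the trr to Ncoa6 ratio was apart in the 2 groups, at 0.484 and 0.498 (wild type) and 0.699 and 0.635 (wtsP2), a difference of 0.44 in mean log2 ratio with SDs of 0.03 and 0.10 (n = 2 per group). The two-sided exact permutation test gave p = 0.333 for it, the smallest p that 2 against 2 libraries allow, and p = 0.667 for the other 3 ratios, with an adjusted p of 0.667 for all 4. With the reads recovered from the authors' deposited table the difference of the trr to Ncoa6 ratio was 0.16 and the groups were no longer apart (exact permutation p = 1).

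**Figure D4:**
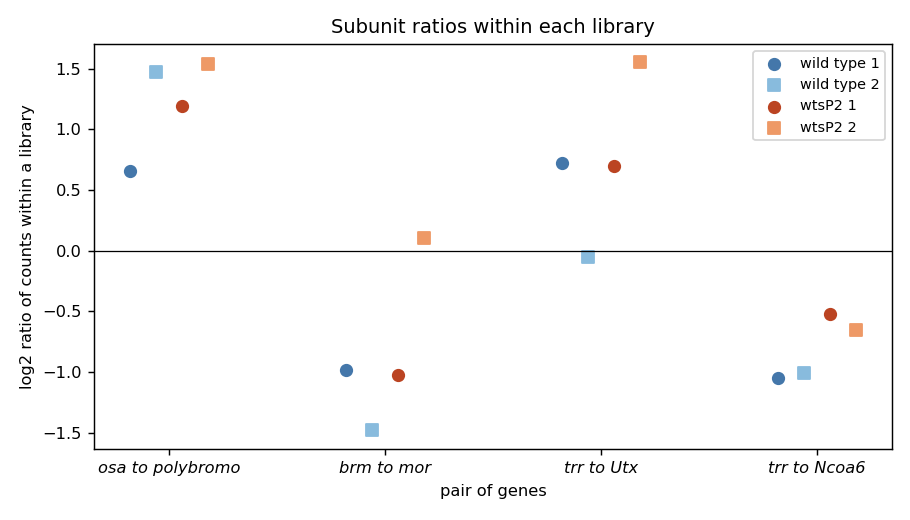
Log2 ratios of the counts of 2 genes within a library, 1 point per library. The trr to Ncoa6 points of wtsP2 (0.699 and 0.635 as plain ratios) lie above those of wild type (0.484 and 0.498), and the groups overlap for the other 3 pairs.

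The genes named beside these 10 as partners went both ways, as did all tested genes, of which 58.0% had a positive log2 fold change. Over the 4 lists of them, 2 of 28 tested genes (Ptip and dre4), or 7.14%, had an unadjusted p under 0.05 in edgeR as higher, against 9.91% of all tested genes, and 0 as lower, and DESeq2 and limma-voom called 0. Of 7 other Brahma complex subunit genes, 0 passed, 4 had positive log2 fold changes and the median was 0.13. The other PBAP subunit genes Bap170 and e(y)3 were at 0.45 ± 0.53 and 0.57 ± 0.93, and e(y)3 had 52.1 and 417 CPM in the wild-type libraries against 307 and 383 CPM in wtsP2. Brd7-9, for a bromodomain subunit, was at 0.69 ± 0.56, and the actin gene Act5C, whose product is also a subunit and whose reads could be shared with other actin genes, was at -0.64 ± 0.32. Of 7 other Trr complex genes, 0 passed, 3 were positive and the median was -0.09. Ptip, for a subunit with BRCT repeats, had 68.7 and 76.1 CPM (wild type) and 162 and 187 CPM (wtsP2) (1.27 ± 0.47, edgeR adjusted p = 0.368), values close to those of trr. Pa1 was at 2.87 ± 2.03 (33, 0, 196 and 236 counts). Lpt, which encodes the part of the mammalian relatives that Trr itself lacks, had counts of 1 and 132 (wild type) and of 188 and 190 (wtsP2), and no direction could be read from it (-0.69 ± 1.94).

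Of 11 partners and relatives of the GAGA factor, 10 were matched in the files and tested, 0 passed and 7 were positive, with a median of 0.27. The FACT subunit gene dre4 was at 1.18 ± 0.38 (193 and 215 CPM against 388 and 537 CPM; edgeR adjusted p = 0.368), and Nurf-38, of the nucleosome remodelling factor NURF, at -0.68 ± 0.38. Of Yki and its DNA-binding partners, 0 of 4 passed and 2 were positive (median -0.02). The gene yki was at -1.04 ± 0.78, its partner gene sd (scalloped) at -0.38 ± 0.39 and tsh (teashirt) at 0.53 ± 0.49. The reads assigned to Trl, which include those shared with CG42507, were also compared with other genes by profile. Nearest over the 4 libraries were the tested genes Mgtor, tyf and Ptp10D. Their Euclidean distances, between log2 CPM profiles centred on their own means, were 0.02, 0.07 and 0.11, where the median over all tested genes was 2.44. With 4 libraries in 2 groups many genes can share such a profile.

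**Figure D5:**
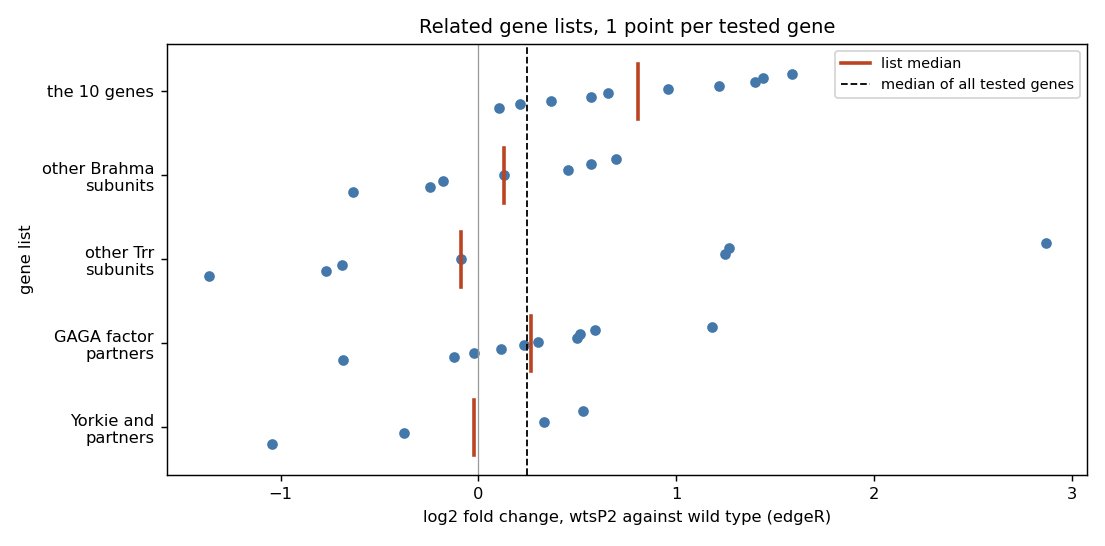
Log2 fold changes of the 10 genes and of 4 related lists, 1 point per tested gene, with each list's median (red) and the median of all tested genes (dashed, 0.24). All 10 points of the top row are above 0, and the points of the 4 other lists lie on both sides of it, with medians from -0.09 to 0.27.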

How the data were processed

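Per the labels' protocols, a SOLiD kit for total RNA was used to make the libraries. HTSeq, DESeq and the builds BDGP5 and dm3 are named in the submitters' processing notes. Neither the aligner nor the strand setting is given in the sources used here. As files, the authors deposited read counts, exon counts and RPKM for 15222 features per library, per the file headers, and a table of group means (the signal, counts over DESeq size factors) with the fold, a ratio of means (wtsP2 over wild type). Most nonzero means (8281 of 8286 and 9808 of 9875) split in 1 way into whole reads of 2 libraries (tolerance 1e-09, relative for means above 1 and absolute below).

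Counts were filtered with filterByExpr, scaled by TMM and tested with edgeR 4.0.16 in R 4.3.3 (robust quasi-likelihood F test, Benjamini-Hochberg over 7278 genes, threshold 0.05). SE is the size of the fold change on the log2 scale divided by sqrt(F). Alternatives used DESeq2 1.42.0, limma-voom (limma 3.58.1), other scalings and filters, the replicate block, recovered reads and each library left out. Ratios had 0.5 added to both counts. The procedure was tested on simulated counts with known changes. Symbols were matched by gene or transcript identifier, and CLAMP was not matched. The 10 genes and the lists were chosen with earlier results of these data known. Named beside the 10 were the 2 genes of each list with the smallest p, the other PBAP genes, Lpt, yki, sd, wts and the 3 profiles nearest to the gene with the smallest p.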

Additional observations from a re-analysis of the deposited data

How the results depend on the processing

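Of 129 values of the 10 genes under the alternatives, 119 kept their direction and their side of the threshold, 9 passed where the value with all libraries did not, all with a wild-type library left out, and 1 turned: polybromo was at -0.042 without the first wtsP2 library and between there and 0.27 with any library left out. For Trl from recovered reads the fitted fold depends on the prior count, since wild type was at 0, and is not among these values; it did not pass (edgeR adjusted p = 0.357). Trl's mean was 0 and 15.7 in the authors' deposited table, and 185 and 430 TMM-scaled CPM in the per-library counts, which also count reads shared with CG42507. Of the 10 genes, 0 to 6 passed with a library left out. Of all genes, 18 to 3195 were called with a library left out, 37 with no filter, 182 by DESeq2 and 150 by limma-voom, against 0 in edgeR with all libraries, where 914 had an unadjusted p under 0.05. Other scalings, a stricter filter and recovered reads also called 0 genes. The replicate block called 107 genes and none of the 10; the same-numbered deviations correlated at r = 0.01, so the numbers were not taken as pairs. The osa to polybromo ratio differed by -0.11 to 0.71 with a library left out, negative without the first wild-type library. For these changes the cause was not tested. The low depth of the second wild-type library limits the values of trr, Utx, Snr1 and brm, which had 57 to 76 counts there.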
